A study of Mus musculus with 2 samples.

Results

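The genes of the matrix metalloproteinases (Mmp), of the ADAM and ADAMTS metalloproteinases (Adam, Adamts) and of the tissue inhibitors of metalloproteinases (Timp) were followed in glomerular RNA of mice with experimental lupus nephritis. Members were chosen by their symbol alone, which was read from the RefSeq accession of each array probe, and no signal entered the rule. The rule and the gene lists used below were set with earlier results of these data known. This gave 79 genes with 105 probes, of 20654 named genes in all. They were 22 Mmp, 4 Timp, 34 Adam and 19 Adamts genes. The signal of Mmp27, which also fits the symbol rule, was not analysed here.

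Glomeruli, the filtering units of the kidney, came from male mice aged 8 months that were wild type (WT) or lacked Sirpa in podocytes (Sirpa-/-), with 1 Agilent one-colour array for each group. SIRPα, the product of Sirpa, is an inhibitory receptor for CD47. Both groups had received 1 intraperitoneal injection of 0.5 ml of pristane, an oil that sets off lupus-like autoimmunity, 4 months before. No mice without pristane were analysed here, and the sources used here give neither the Cre driver of the deletion nor the number of animals behind each array. The glomeruli were freed by digesting renal cortex with collagenase, protease and DNase I, and the series design text speaks of podocytes where the sample labels speak of glomeruli.

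MMPs are zinc-dependent proteases that cut collagens, laminins and other matrix proteins, and most of them are secreted as inactive precursors. ADAMs are membrane-anchored relatives that shed growth factors, cytokines and receptors from the cell surface, while ADAMTS are secreted relatives that cut proteoglycans, procollagens and von Willebrand factor. TIMPs bind the active site of MMPs, and of some of the ADAM and ADAMTS enzymes, and block it. In the glomerulus these genes are known for their part in the turnover of the basement membrane and mesangial matrix.

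With 1 array per group there was no replicate, so no test was made, and a difference describes these arrays rather than the genotypes. Signals are background-corrected fluorescence intensities, and differences are log2 values, scaled to each array's 75th percentile, with the WT value subtracted from that of the array labelled Sirpa-/-. Pairs of signals give the WT array first. The smallest signal well above background was 6.72 and 6.21, and 0 spots were saturated. Technical spread was read from probes spotted 10 times, as the SD of the log2 difference between single spots at a similar signal, called the spot SD here. It had a median of 0.11 for probes at or above the median signal and of 0.43 for dimmer ones, and covers neither RNA preparation nor animals. The single Sirpa probe gave 11620 and 17320, so it was 1.56-fold higher where the label says that Sirpa was deleted. The place of the probe relative to the deleted part is not known here, and every direction below is that of an array named by its label. All 10 listed podocyte markers were measured on both arrays, among them Podxl with signals of 40620 and 45330. In such bulk RNA, fewer cells of a type and less RNA per cell cannot be told apart.

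Most members differed little between the arrays: 48 of the 62 measured on both were within 1.5-fold. Of the 79 members, 62 (78.5%) were well above background on both arrays, against 88.3% of all named genes. A further 5 were above background on 1 array only and 12 on neither. Among the 62 measured members, 1 was at least 2-fold higher (Mmp8) and 1 at least 2-fold lower (Adam39), a share of 1.61% each, against 1.56% and 1.67% of all measured genes. At 1.5-fold, 5 members (8.06%) were higher and 9 (14.5%) lower, against 4.35% and 5.27% of all genes. The counts at 1.5-fold were equal on both sides with the mean of each gene's probes (5 and 5) and with no filter on dim probes (11 and 11). The median over the members was -0.08, with quartiles of -0.32 and 0.07, against a median of 0.0 over all genes, and 39 of 62 (62.9%) lay below 0, against 49.7%. With normexp background correction the members' median was 0.06, beside 0.07 for all genes, and 24 lay below 0. The lower values lay among the brighter members: 25 of the 32 at or above the median probe signal were below 0 (78.1%), with a median of -0.18, while 48.8% of all genes at such signals were. Of the 30 dimmer members, 14 were below 0, with a median of 0.0. Past 2 spot SDs lay 8 members (12.9%) on the higher side and 16 (25.8%) on the lower side, against 11.9% and 12.3% of all genes. Past 2 of the scanner software's own errors, which had a median of 0.21 over the members, lay 5 (8.06%) and 12 (19.4%), against 6.73% and 8.15%.

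**Figure D1:**
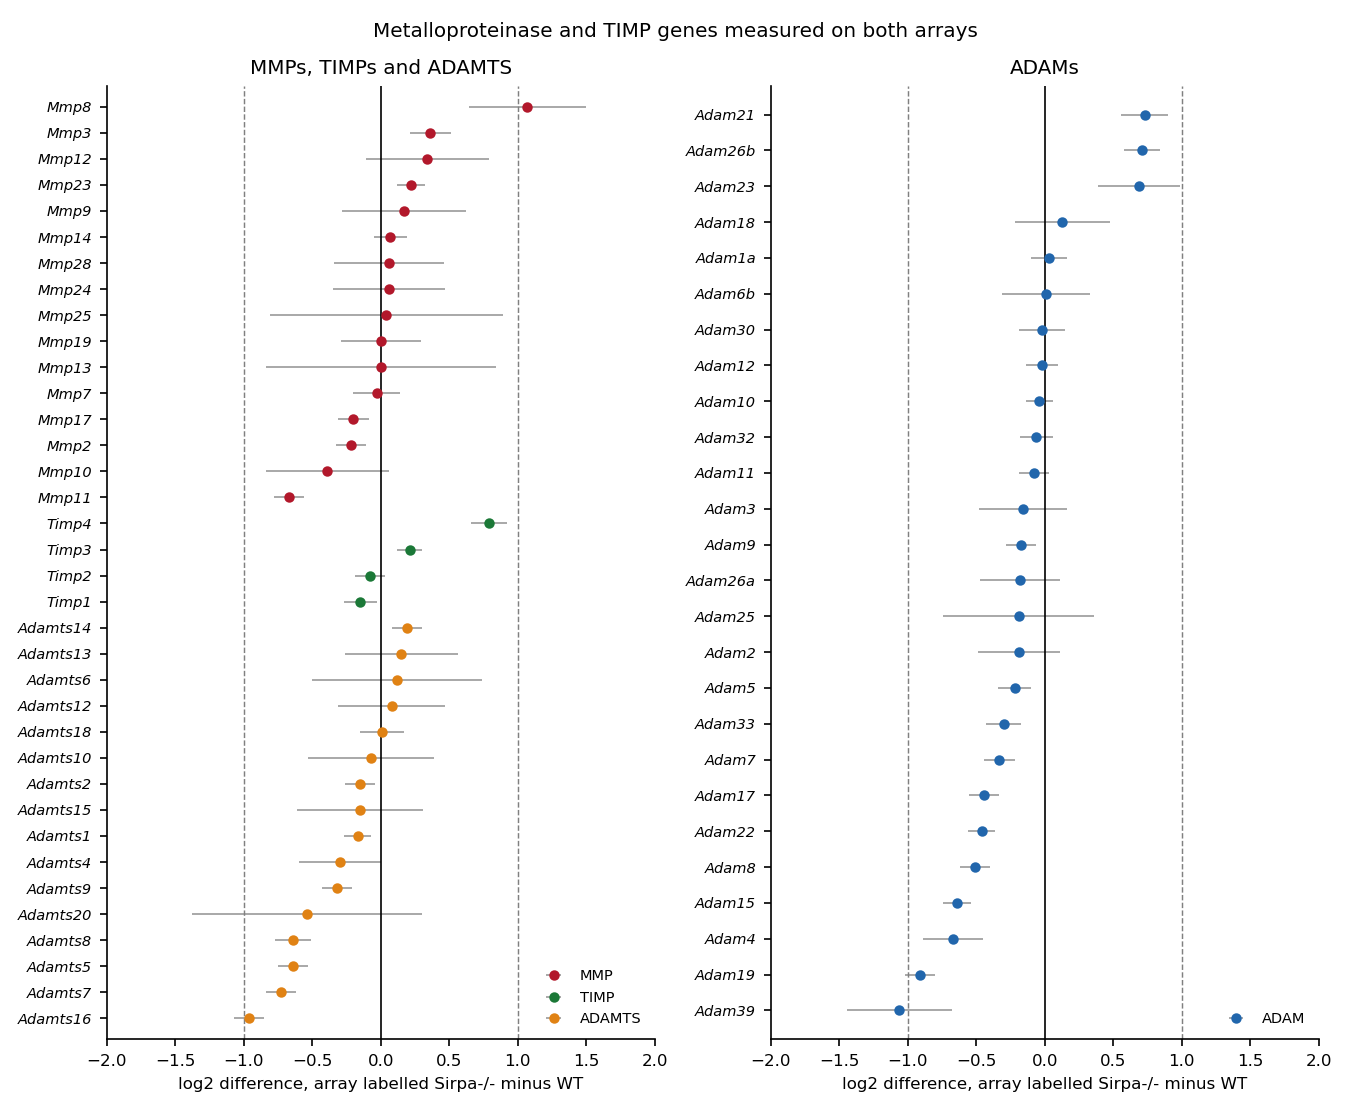
Each point is the log2 difference of 1 gene measured on both arrays, array labelled Sirpa-/- minus WT, with a bar of 1 spot SD to either side and dashed lines at 2-fold. Mmp8 at 1.07 and Adam39 at -1.06 are the only points past the dashed lines, and dim genes such as Mmp13 carry wide bars.

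**Figure D2:**
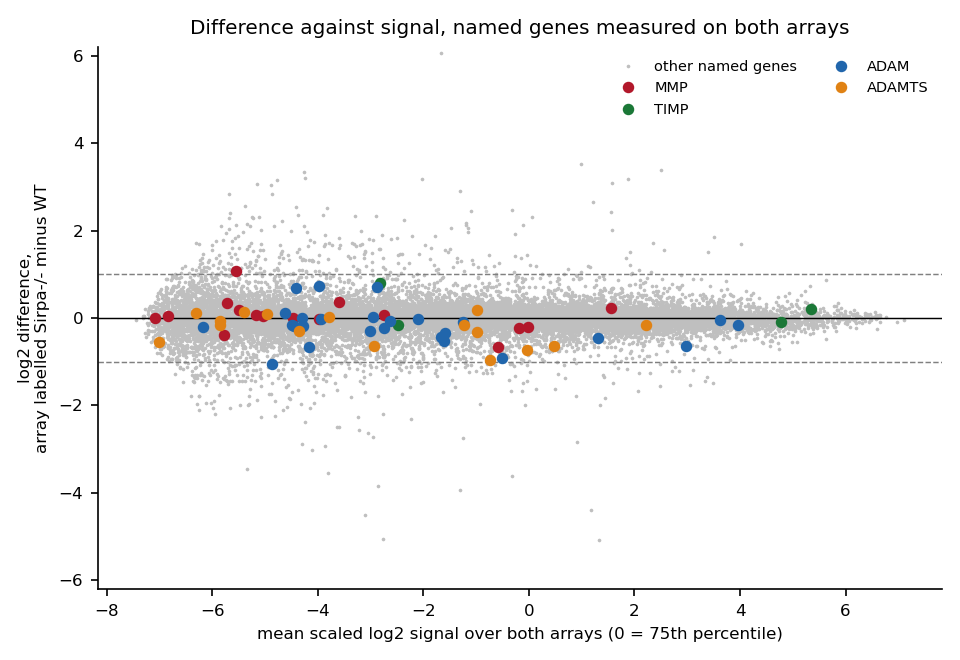
The log2 difference is plotted against the mean scaled log2 signal over both arrays for all 18236 named genes measured on both (grey) and the 62 members (coloured by family). The members lie within the grey cloud, between -1.06 and 1.07, while all genes reach from -5.08 to 6.07.

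Among the inhibitors, Timp4 was 1.73-fold higher for the array labelled Sirpa-/-, and the other TIMPs stayed within 1.5-fold. Timp4, the TIMP with the narrowest tissue range, gave 125.0 and 207.3, a log2 difference of 0.79 with a spot SD of 0.13. It has 1 probe, so averaging probes could not move it. Its difference was between 0.66 and 0.8 under the 9 other ways of processing. Timp3, which binds to matrix and also blocks ADAM17, gave 43820 and 48440 (0.21, spot SD 0.09), higher by more than 2 spot SDs. Timp2, which blocks Mmp2 and also takes part in its activation, gave 32730 and 29660 (-0.08) on its chosen probe. Its other probe gave 1377 and 1496 (0.18), so the sign of its small difference depends on the probe. Timp1, the TIMP most often induced by inflammation, gave 218.0 and 188.3 (-0.15, spot SD 0.12). Of the 4 TIMPs, 2 were above 0 and 2 below (3 and 1 with normexp and with averaged probes), and only Timp4 passed 1.5-fold. With normexp, 2 of the 4 lay below the all-gene median of 0.07.

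The MMPs as a family lay near 0, with a median of 0.05 over 16 measured genes of 22 on the array. Of these, 10 lay above 0 and 6 below (37.5%), against 49.7% of all measured genes. That count was 13 above and 3 below with normexp, with a median of 0.21, and 7 of the 16 lay below 0 with quantile normalization, median centring, loess and the authors' table. Only Mmp8 was higher by 1.5-fold and only Mmp11 lower, 6.25% each, against 4.35% and 5.27% of all measured genes. Among the collagenases, which cut fibrillar collagen, Mmp8 (neutrophil collagenase) gave 16.99 and 34.15, a 2.1-fold difference (1.07) with a spot SD of 0.43 at this dim signal. With normexp it was 0.54. Mmp13, the main interstitial collagenase of rodents, gave 8.47 and 8.12, close to background. The other collagenase genes Mmp1a and Mmp1b gave at most 8.81 on either array, with Mmp1a above background on the array labelled Sirpa-/- only (8.81 against 8.73) and Mmp1b on neither.

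Neutrophil markers, listed because Mmp8 is a neutrophil granule gene, did not share a direction. Of 11 listed, 10 had a named probe and 9 were measured on both arrays, with 6 above 0, 3 below 0 and a median of 0.22. None was 1.5-fold higher. S100a8 gave 0.55 and S100a9 0.46, while the granule genes Ltf (-0.91) and Mpo (-0.74) were lower, Elane lay at 0.05 and Ngp was not above background on either array. The list summed to signals of 11470 and 14350. The part of these cells in the Mmp8 difference was not tested.

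The gelatinases Mmp2 and Mmp9, which cut denatured collagen and type IV collagen of basement membranes, stayed within 1.5-fold. Mmp2 gave 1095 and 900.4 (-0.22, spot SD 0.11), lower by more than 2 spot SDs. Mmp9 was spotted 10 times on each array, and its spots ran from 14.66 to 40.44 for WT (median 25.31) and from 19.08 to 39.36 for the array labelled Sirpa-/- (median 27.29). The spots of the arrays overlapped over nearly their whole range, and the difference of 0.17 was smaller than the SD between spots on either array, which was 0.41 and 0.34. The difference is one of means over 10 spots, while most other members were read from 1 spot.

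Mmp11 (stromelysin-3, which furin activates inside the cell) was 1.59-fold lower for the array labelled Sirpa-/-, at 970.2 and 585.1 (-0.67, spot SD 0.11). Its other probe gave 358.8 and 253.4 (-0.44), the same direction. The stromelysins Mmp3 and Mmp10, broad matrix proteases, differed in sign. Mmp3 gave 83.77 and 103.2 (0.36, spot SD 0.15) and Mmp10 24.15 and 17.68 (-0.39, spot SD 0.45, and 0.11 with normexp). Mmp7 (matrilysin), an epithelial protease known from injured tubules, gave 73.9 and 69.22 (-0.03). Mmp12 (macrophage elastase) gave 19.51 and 23.64 (0.34, spot SD 0.45), below the spread of single spots, and its other probe was not above background on either array. Of 10 measured macrophage markers, 3 lay above 0 and 7 below, with a median of -0.09. At 1.5-fold, 2 (20%) were lower, Adgre1 (-0.91) and Cx3cr1 (-0.71), and 0 higher, against 5.27% and 4.35% of all measured genes. The unscaled signals summed to 13410 and 13640, of which Mrc1 alone gave 7203 and 8827.

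The membrane-type MMPs, anchored at the cell surface, stayed within 1.5-fold where both arrays measured them. Mmp14, which activates Mmp2 on the cell surface, gave 168.4 and 169.6 (0.07). The GPI-anchored Mmp17 gave 1227 and 1023 (-0.2), its relative Mmp25 9.99 and 9.84 (0.04), and Mmp24 31.58 and 31.56 (0.06). Mmp15 was well above background on the WT array only, at 14.2 against 3.9, with a bound of at least 2.19-fold lower for the array labelled Sirpa-/-. A bound sets the brighter signal against the gene's own signal on the dim array or the lowest signal well above background there, whichever is higher, after scaling. It takes 1 spot per array as exact, so the spread between spots is left out of every bound given here. That spread is wide at such signals: Adamts6, at 13.99 and 14.6, had a spot SD of 0.62. Mmp16 was also above background on the WT array only (9.28 against 6.65), with a bound of at least 1.34-fold. Among the remaining MMPs, Mmp23 gave 3155 and 3518 (0.22), Mmp28 34.23 and 34.14 (0.06) and Mmp19 51.98 and 49.64 (a difference of 0.0 at 2 decimals), while Mmp20 and Mmp21 were not above background on either array.

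Many secreted MMP genes are known to be switched on through AP-1, the Fos and Jun dimer, which binds the sequence TGAGTCA, which reads as TGACTCA on the other strand. This motif, read on both strands, was searched in the 250 bases before each start in a RefSeq promoter table (GRCm38.p6), where 50 members of the gene table, Mmp27 included, had an entry. It was present in 7 of 21 Mmp promoters (33.3%), in 2 of 20 Adam promoters (10%) and in 0 of 4 Timp and 0 of 10 Adamts promoters, against 4.46% of all 32851 promoters in the table. The 7 Mmp genes with a match were Mmp1a, Mmp1b, Mmp3, Mmp7, Mmp10, Mmp12 and Mmp13, and the Adam genes were Adam19 and Adam29. Adam19 has 3 promoter entries, and Mmp7 and Mmp12 have more than 1, with the match in 1 entry of each. Stretches of 120 bases are shown for the measured genes with a match, and for Mmp8, the member with the highest difference, whose 250 bases hold no match. Each is written in the direction of the gene, and capitals mark the motif.
Mmp3, chr9:7445702-7445821, plus strand: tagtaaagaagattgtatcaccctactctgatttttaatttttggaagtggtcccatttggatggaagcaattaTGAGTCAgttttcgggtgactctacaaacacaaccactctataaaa
Mmp10, chr9:7502222-7502341, plus strand: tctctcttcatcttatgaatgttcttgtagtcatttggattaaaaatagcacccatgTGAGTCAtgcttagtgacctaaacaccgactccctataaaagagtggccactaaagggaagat
Mmp13, chr9:7272394-7272513, plus strand: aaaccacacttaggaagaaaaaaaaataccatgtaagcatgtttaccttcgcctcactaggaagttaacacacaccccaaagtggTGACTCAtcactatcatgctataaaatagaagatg
Mmp12, chr9:7347254-7347373, plus strand: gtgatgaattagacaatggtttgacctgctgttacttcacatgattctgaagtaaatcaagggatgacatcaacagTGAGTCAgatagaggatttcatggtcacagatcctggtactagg
Mmp7, chr9:7691970-7692089, plus strand: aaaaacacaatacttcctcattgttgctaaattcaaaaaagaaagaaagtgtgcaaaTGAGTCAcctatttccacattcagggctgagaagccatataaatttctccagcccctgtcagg
Adam19, chr11:46055797-46055916, plus strand: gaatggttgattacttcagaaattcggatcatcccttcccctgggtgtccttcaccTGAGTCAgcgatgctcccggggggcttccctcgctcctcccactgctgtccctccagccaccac
Mmp8, chr9:7558309-7558428, plus strand: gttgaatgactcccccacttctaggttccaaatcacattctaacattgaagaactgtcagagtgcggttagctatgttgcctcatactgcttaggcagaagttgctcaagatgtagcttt
The first match began 46 bases before the start in Mmp3, 63 in Mmp10 and in Mmp7, 35 in Mmp13, 44 in Mmp12 and 131 in Adam19. The measured genes that carry it did not share a direction: they gave 0.36 (Mmp3), 0.34 (Mmp12), 0.0 (Mmp13), -0.03 (Mmp7), -0.39 (Mmp10) and -0.91 (Adam19). Of the AP-1 subunit genes, Fos gave -0.49, Jun 0.09, Junb -0.02 and Fosl1 0.52, the last at a dim signal (17.84 and 24.56). A match is a description of these letters and not a bound site.

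The ADAM family had a median of -0.17 over 26 measured genes. Of these, 20 lay below 0 (76.9%) and 6 above, while 49.7% of all measured genes lay below 0. With normexp the median was -0.01 with 13 on either side of 0. The median of all genes was 0.07 with normexp, and 18 of the 26 lay below that. The somatic ADAMs with an active protease domain lay below 0 on the array labelled Sirpa-/- in all 8 measured cases, with a median of -0.37. Among them, Adam10 (-0.04) and Adam12 (-0.02) lay within their spot SDs of 0.1 and 0.12. With normexp 7 of 8 lay below 0, at a median of -0.24, and all 8 below the all-gene median. Without the filter on dim probes 8 of 9 lay below 0, at -0.3. Adam19 (meltrin beta, a neuregulin sheddase) gave 1118 and 570.5, a 1.88-fold lower value (-0.91, spot SD 0.11). Adam15, an ADAM of endothelial and epithelial junctions, gave 11320 and 6968, 1.56-fold lower (-0.64, spot SD 0.1). Both genes have 1 probe, so averaging probes could not move them. Both stayed past 1.5-fold lower under all 9 other ways of processing, between -0.93 and -0.79 for Adam19 and between -0.72 and -0.61 for Adam15.

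Adam8, an ADAM of leukocytes, gave 455.9 and 305.6 (-0.51, spot SD 0.11). Adam17, the TNF convertase that also sheds EGF receptor ligands, gave 423.5 and 299.3 (-0.44), and its other probe gave 328.8 and 249.6 (-0.33). Both Adam17 probes were thus lower, by less than 1.5-fold. Adam10, the Notch sheddase and alpha-secretase, differed by -0.04, at 14520 and 13530. Adam9, a further broadly expressed sheddase, gave 19100 and 16260 (-0.17). Adam12 (meltrin alpha) gave 271.6 and 257.3 (-0.02), with -0.29 and -0.57 on its dimmer probes. Adam33 gave 158.7 and 123.4 (-0.3) and 0.07 on its other probe, and Adam28 was not above background on either array.

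The ADAMs that lack protease activity and act in adhesion differed in sign. Adam23 was 1.61-fold higher for the array labelled Sirpa-/-, at 43.05 and 66.36 (0.69, spot SD 0.3), and its other probe gave 26.14 and 36.27 (0.53). Adam22, like Adam23 a receptor of LGI proteins in neurons, gave 3374 and 2347 (-0.46, spot SD 0.1). Adam11 gave 500.0 and 452.2 (-0.08) on its chosen probe and 69.6 and 43.24 (-0.62) on a probe for another RefSeq transcript.

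The ADAMs known from testis and epididymis, where they serve sperm maturation and egg binding, were mostly dim. Of 22 on the array, 15 were measured, with a median of -0.16. Of these, 5 lay above 0 and 10 below (66.7%), against 49.7% of all measured genes. With normexp 10 were above 0 and 5 below, with a median of 0.06, and 8 lay below the all-gene median of 0.07. Adam39 was 2.08-fold lower at 57.17 and 26.35 (-1.06, spot SD 0.38), and -0.26 with normexp. Adam4 was 1.59-fold lower at 81.4 and 49.08 (-0.67, spot SD 0.22), and -0.22 with normexp. Adam21 was 1.66-fold higher at 57.07 and 90.47 (0.73, spot SD 0.17), and Adam26b 1.64-fold higher at 123.2 and 193.1 (0.71, spot SD 0.13). Several of these genes are close copies of each other, so that a probe may read more than 1 of them: Adam26a, the nearest relative of Adam26b, gave -0.18 and 0.01 on its probes. Adam29, above background on the array labelled Sirpa-/- only, had a bound of at least 1.67-fold higher (7.21 and 11.55). Male germ cell markers were measured too, 7 of 7, with summed signals of 293.0 and 265.1 and a median of -0.16, and none passed 1.5-fold.

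The ADAMTS genes had a median of -0.16 over 16 measured members. Of these, 11 lay below 0 (68.8%) and 5 above, while 49.7% of all measured genes lay below 0. At 1.5-fold, 4 (25%) were lower and 0 higher, against 5.27% and 4.35% of all measured genes. With normexp the median was 0.04, and 7 lay below 0 and 9 below the all-gene median of 0.07. With the mean of each gene's probes 1 was at least 1.5-fold lower. Adamts16, known from blood pressure loci of the rat, was 1.94-fold lower for the array labelled Sirpa-/-, at 967.6 and 476.9 (-0.96, spot SD 0.11). Its other probe gave 61.68 and 54.1 (-0.13). Adamts7, which cuts cartilage oligomeric matrix protein, was 1.66-fold lower at 1446 and 832.8 (-0.73, spot SD 0.11), on its only probe. Its difference lay between -0.75 and -0.67 under the other ways of processing.

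The proteoglycan-cleaving ADAMTS lay below 0 in 7 of 7 on the chosen probes (median -0.32), against 49.7% of all measured genes. They did so in 5 of 7 with normexp and in 6 of 7 with the mean of each gene's probes (median -0.17). Adamts5, a main aggrecanase, was 1.56-fold lower on its brighter probe at 1999 and 1228 (-0.64, spot SD 0.11), but its other probe gave 167.2 and 208.5 (0.38). Adamts8 gave 189.3 and 116.6 (-0.64) on one probe and 24.88 and 40.67 (0.77) on the other, so no direction can be given for either gene. Adamts1, a versican-cleaving enzyme of the vasculature, gave 5706 and 4864 (-0.17). Adamts9, its widely expressed relative, gave 650.4 and 498.3 (-0.32), and Adamts4, the other main aggrecanase, 63.1 and 48.97 (-0.3, spot SD 0.3). Adamts15 (-0.15) and Adamts20 (-0.54, spot SD 0.84) were dim, at 20.96 and 18.05 and at 10.88 and 7.15.

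Adamts13, which trims von Willebrand factor, lay within its spread at 26.15 and 27.78 (0.15, spot SD 0.41). The procollagen N-proteinases Adamts2 (517.3 and 445.7, -0.15) and Adamts14 (544.3 and 596.1, 0.19) gave 0.14 and -0.48 on their other probes, so neither held its sign. Adamts3 and Adamts19 were not above background on either array. Adamts17 was above background on the array labelled Sirpa-/- only (9.2 and 13.76), with a bound of at least 1.56-fold higher. The remaining ones, Adamts6, Adamts10, Adamts12 and Adamts18, lay between -0.07 and 0.12.

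A second measured probe was at hand for 16 members, and the probes of a gene often did not go the same way. The probes had the same sign in 8 of 16 members, against 63.1% of 4559 genes with more than 1 measured probe, and their median gap was 0.27 against 0.17. The members and all genes were not matched for signal here. The second probe is the dimmer one, in places close to background, as in Adam26a (9.93 and 9.55). Some sign changes were between values near 0, such as -0.06 and 0.06 for Adam32. Of the 5 of these members past 1.5-fold on the chosen probe (Adam23, Adamts5, Adamts8, Adamts16 and Mmp11), 3 kept the sign on the other and 0 passed 1.5-fold on it. Over all genes, 107 of 321 (33.3%) did. The widest gaps were 1.41 for Adamts8, 1.02 for Adamts5, 0.83 for Adamts16 and 0.67 for Adamts14, all of them ADAMTS genes. The probes of Adam17, Adam23 and Mmp11 differed by 0.1, 0.15 and 0.23.

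**Figure D3:**
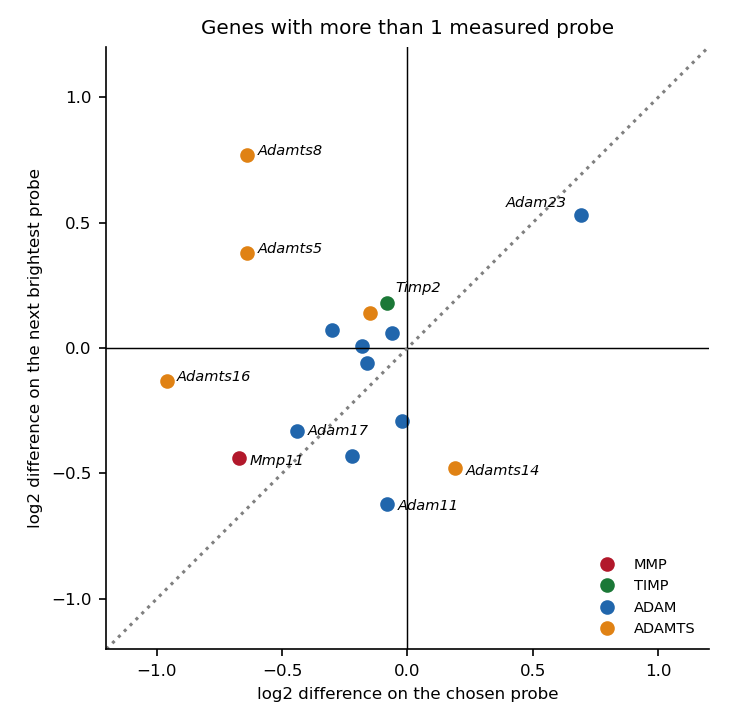
For the 16 members with more than 1 measured probe, the log2 difference on the chosen, brighter probe (x axis) is set against that on the next brightest (y axis), with a dotted line of equality. Adamts8 and Adamts5 lie in the upper left, with opposite signs on their probes, while Mmp11, Adam17 and Adam23 lie near the line.

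Many members lie side by side in the genome, and their differences are given here in gene order. The run of Mmp genes on chromosome 9 holds 10 genes, of which 6 were measured on both arrays. In gene order these were Mmp13 (0.0), Mmp12 (0.34), Mmp3 (0.36), Mmp10 (-0.39), Mmp8 (1.07) and Mmp7 (-0.03). Mmp8 lies next to Mmp10, whose value is within its spot SD of 0.45 and was 0.11 with normexp. On chromosome 8, the run Adam18 (0.13), Adam3 (-0.16), Adam5 (-0.22), Adam32 (-0.06) and Adam9 (-0.17) differed little. On chromosome 12, Adam4 (-0.67) and Adam21 (0.73) also lie close together, with opposite signs. In the other chromosome 8 runs, Adam39 (-1.06) was lower, and Adam25 (-0.19) lay within its spot SD of 0.55. Adam26b (0.71) and Adam26a (-0.18, spot SD 0.29) differed in sign.

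**Figure D4:**
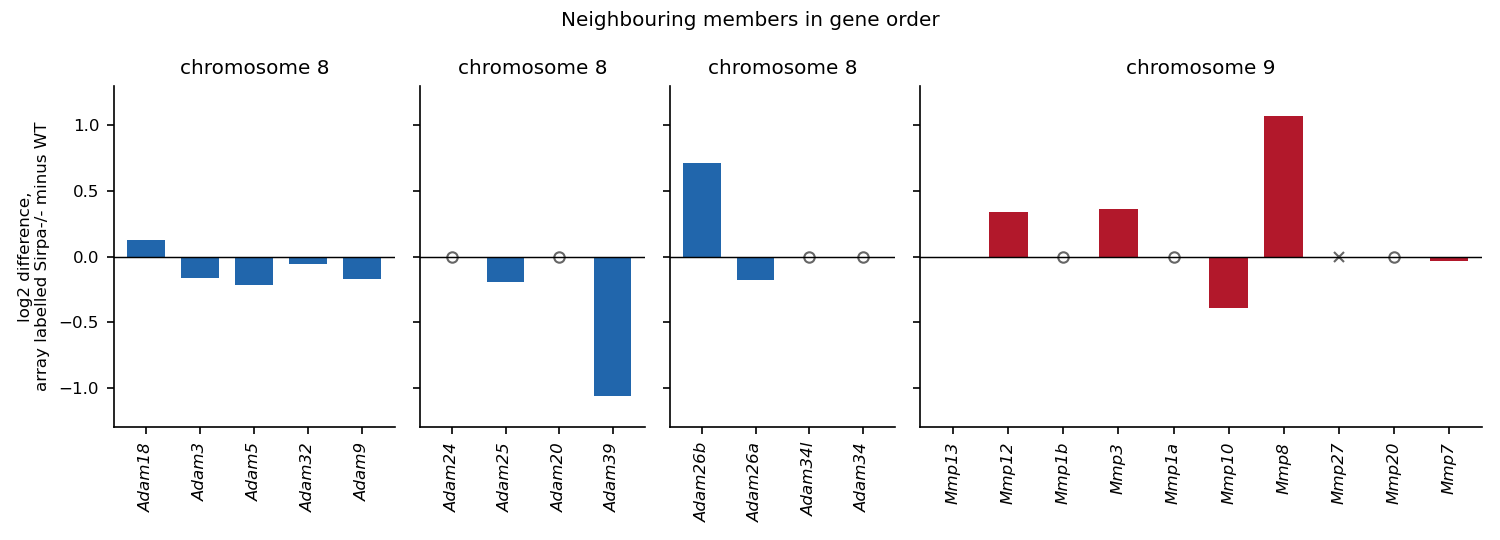
Bars give the log2 difference of neighbouring members in their order along chromosomes 8 and 9, open circles genes not measured on both arrays and a cross the gene whose signal was not analysed here. Mmp8 at 1.07 and Adam39 at -1.06 have the longest bars, and that of Mmp13, at 0.0, cannot be seen.

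Of the 14 members at least 1.5-fold apart, the calls that held under all 9 other ways of processing were those of Adam15, Adam19, Adam26b, Adamts7 and Timp4. Adam26b and Timp4 were higher, and Adam15, Adam19 and Adamts7 lower. Each of these genes has 1 probe, so averaging probes could not move its value. The changed filters on dim probes and the keeping of marked spots also left their values as they were. Their calls were thus put to the test only by the other normalizations, normexp and the authors' table, which gave nearly the same values as quantile normalization. Normexp took 6 of the others below 1.5-fold (Adam4, Adam21, Adam23, Adam39, Adamts8 and Mmp8), and it also took Mmp11 just below. Averaging a gene's probes took Adamts5, Adamts8, Adamts16 and Mmp11 below it.

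**Figure D5:**
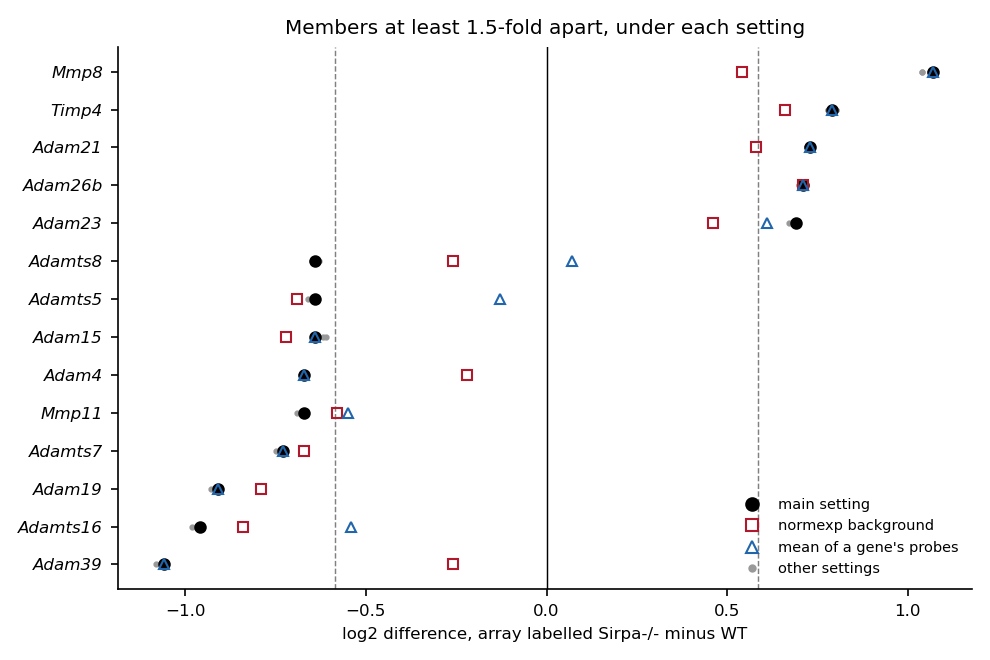
Each row is a member at least 1.5-fold apart (dashed lines), with its log2 difference under the main setting (black), normexp background (squares), the mean of a gene's probes (triangles) and the other settings (grey). The squares of dim genes such as Adam39 (-0.26) lie far from the black points, and the triangle of Adamts8 lies at 0.07.

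Most genes that work with these enzymes were within 1.5-fold, though the lists differed. Of 14 activator and plasminogen system genes (median 0.03), 1 (7.14%) was at least 2-fold higher and 0 lower. The shares of all measured genes were 1.56% and 1.67%. That gene was Pcsk6, a proprotein convertase of the furin family, at 2044 and 20340 on its only probe. Furin itself gave 21730 and 21120 (0.02), the plasminogen activators Plat 0.22 and Plau -0.3, and plasminogen (Plg) 0.57 at signals of 8.64 and 12.28. Among 7 measured inhibitors and clearance genes other than TIMPs (median -0.08), the membrane MMP inhibitor Reck gave -0.13 and the endocytic receptor Lrp1 -0.21. Of 4 measured ADAMTS-like genes, which lack a protease domain, 0 passed 2-fold. Only 1 (25%) was past 1.5-fold higher, against 4.35% of all measured genes.

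The list of ADAM17 and ADAM10 partners, which also holds the ADAM-like protease gene Adamdec1, had 0 of 10 genes past 1.5-fold and a median of 0.05. The iRhoms Rhbdf1 (0.05) and Rhbdf2 (-0.2), carry ADAM17 to the cell surface, and the tetraspanins of the list escort ADAM10. Of 23 measured shed substrates (median 0.05), 1 (4.35%) was at least 2-fold lower and 0 higher, against 1.67% and 1.56% of all genes. That was Vcam1, an adhesion molecule for leukocytes, at 4840 and 1866 (-1.31), with -0.91 on its other probe. At 1.5-fold, 3 shed substrates were higher and 3 lower, Vcam1 included. These were 13% each, against 4.35% and 5.27% of all measured genes. Matrix substrates had a median of -0.02 over 14 genes, with 1 (7.14%) past 1.5-fold, on the lower side, against 5.27% of all genes. The list of MMP inducers had 0 of 10 past 1.5-fold (median -0.04).

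Markers of some other cells differed between the arrays and stand beside the ADAM and ADAMTS values. All 8 proximal tubule markers were below 0, with a median of -0.38 and summed signals of 9390 and 6262. Distal nephron markers had 6 of 8 above 0 (median 1.0), and B cell markers 8 of 8 (median 1.33). In each list 4 (50%) were at least 2-fold higher, against 1.56% of all measured genes. The distal nephron sums were 2702 and 4742, of which Umod alone gave 1552 and 2907. The B cell sums were 1216 and 4070, of which Cd22 alone gave 536.2 and 2562. All 6 T cell markers were above 0 (median 0.56), with sums of 1558 and 1800. The median was 0.09 for podocyte markers (from -0.25 to 0.63), -0.08 for endothelial markers (from -0.29 to 0.22) and -0.05 for mesangial markers (from -0.42 to 1.13). The 7 measured fibroblast markers went both ways, from -0.78 to 0.68 with a median of 0.2. Their sums were 51830 and 45420, of which Pi16 alone gave 30510 and 19800, with Dpt not above background on either array. The part of any of these cells in the differences of the metalloproteinase genes was not tested.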

How the data were processed

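Glomerular RNA of 2 groups, 1 array each, was analysed. Per the file headers, the authors extracted 1-colour Agilent arrays with Feature Extraction 11.0.1.1 (the submitters' processing notes name 9.1), and the deposited intensity is background-subtracted and spatially detrended, and was not normalized between arrays. Other deposited columns are flags of 0 or 1, and the authors' value table holds log2 values of unstated scaling. That table served as an alternative, but its member differences were nearly those of quantile normalization, with a median of -0.1 in each. The 2 settings are therefore not separate checks. With Python 3.11.15 (numpy 2.4.6, pandas 2.3.3), unmarked spots of each probe were averaged as log2 intensity and each array's 75th percentile over gene probes was subtracted. A probe was measured when over 50% of its spots were well above background. Probes were named through unversioned RefSeq accessions in a GRCm38.p6 gene table, which named 27225 of 39423 probes, and a gene is its measured probe with the highest mean signal. The array was designed on an older build, so no gene coordinates from that table are given; promoter coordinates belong to the RefSeq sequences.

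No test was made. Genes were counted at 2-fold and 1.5-fold, and the steps were tested on simulated data. The 9 alternatives, run for the 36 members of the naming rule and for groups, were quantile normalization, median centring, loess (statsmodels 0.14.6), normexp on median spot and background signals with an offset of 50 (limma 3.58.1 in R 4.3.3), the authors' table, no filter or only probes above the median signal, averaging the probes of a gene, and keeping marked spots. The stricter filter left out the dimmer genes, so those have 8. Genes named are the members past 1.5-fold, members with a bound past 2-fold, a fixed set of members, and pathway genes past 2-fold or fixed; the other members and marker genes given with values were chosen after their values were seen. The members and lists were chosen with earlier results of these data known.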

Additional observations from a re-analysis of the deposited data

How the results depend on the processing

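The counts past 2-fold, 1 member higher and 1 lower, were 0 and 0 with normexp background and with probes above the median signal alone, 3 and 3 with no filter on dim probes, and 5 and 9 at a threshold of 1.5-fold. They were 1 and 1 under the other settings. The median difference of the members, -0.08, was 0.06 with normexp background, where the median of all genes was 0.07, and lay between -0.18 and -0.07 under the other settings, with a mean of -0.11. Only the 36 members fixed by the naming rule were rerun singly, and 20 of them moved by less than 0.12, the median SD of single-spot differences, in every setting run. Of those past 1.5-fold, Adamts8 turned its direction, at 0.07 with the mean of its probes. Smaller differences that changed sign were Mmp10 (0.11), Mmp7 (0.16), Adamts2 (0.05), Adam12 (0.06), Mmp19 (0.12) and Timp2 (0.04) with normexp, and Timp2 (0.05) with the mean of probes. Mmp13, 0.0 at 2 decimals, lay between -0.06 and 0.21. The offset of 50 used with normexp draws differences at dim signals toward 0 by construction. Other causes of the moves with normexp were not tested. No paired analysis was possible because each group has 1 array, and leaving out an array leaves no comparison. Low signal limits the 30 dimmer members, where single spots had a median SD of 0.43.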
